A study of Mus musculus with 6 samples.

Results

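The genes described here encode the proteasome, its activators and its assembly factors. They were taken from a table of 45706 mouse genes as all protein-coding genes whose symbol begins with Psma, Psmb, Psmc, Psmd, Psme, Psmf or Psmg followed by a digit. This gave 50 genes, and 4 pseudogenes of such symbols were left out. The rule used names alone and no measured value. Poly(A) RNA was sequenced from the livers of 3 wild-type samples (WT 1 to WT 3) and 3 samples labelled ENTPD-8 knockout (KO 1 to KO 3). The product of Entpd8, NTPDase8, is a cell-surface enzyme that breaks down nucleotides outside the cell, and the series title concerns liver injury by ischemia and reperfusion. The mice were bred and kept free of specific pathogens at Charles River, and their strain, sex and age, how the knockout was made and whether these livers had undergone ischemia are not stated. Whether each library of a group represents its own mouse is not stated either, so the p-values here reflect library-to-library spread, which may be technical.

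The proteasome is the protease complex that degrades ubiquitin-tagged proteins. Its core particle, called 20S, is a barrel of alpha and beta subunit rings in which Psmb5, Psmb6 and Psmb7 carry the active sites. The regulatory particle, called 19S, caps the barrel. Its base of ATPases unfolds substrates, and its lid removes ubiquitin. In cells exposed to interferon and in leukocytes, Psmb8, Psmb9 and Psmb10 replace the constitutive active subunits to form the immunoproteasome, which yields peptides for MHC class I presentation. Hepatocytes carry abundant constitutive proteasomes.

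Library totals ran from 32768774 to 46473531 counts. Entpd8 had 22.4 to 56.5 CPM (counts scaled to library size) in wild-type and 0.382 to 1.09 CPM in knockout libraries, so the targeted transcript followed the labels. Of 8 hepatocyte markers, 1 (Cyp2e1) rose and 0 fell, and their sum was 59310 to 75810 CPM in wild-type and 63880 to 83810 CPM in knockout libraries. Mitochondrially encoded transcripts took 6.52% to 8.34% of wild-type and 10.1% to 11.7% of knockout counts. Among 14069 genes tested, 1379 were higher and 1492 lower in knockout livers at an adjusted p under 0.05 (edgeR).

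Few proteasome transcripts differed beyond the spread between libraries. The 50 genes together took 0.328%, 0.349% and 0.363% of counts in WT 1, WT 2 and WT 3 and 0.336%, 0.351% and 0.339% in KO 1, KO 2 and KO 3. As shares of library totals, the knockout values lay within the wild-type range. After TMM scaling, the scale of the CPM values here, this held for KO 1 (3483 CPM) and KO 3 (3314 CPM) only. The scaled sum of KO 2, 3746 CPM, exceeded the wild-type range of 3259 to 3572 CPM. Low counts removed Psmb11, leaving 49 genes tested, of which 0 rose and 1, Psmd9, fell. Among all genes tested, 9.80% rose and 10.6% fell, 20.4% in all, against 2.04% of the proteasome genes. At an unadjusted p under 0.05 there were 3 proteasome genes (Psmd9, Psme1 and Psma6), against 36.0% of all genes tested. The count of rises was also 0 with limma voom, and it was 1 with DESeq2. The median log2 fold change was 0.08 over the 49 genes and -0.02 over all genes tested. Most of these genes were well expressed: 36 of the 49 averaged 5 or more in log2 CPM, and 1 of those 36 passed. Of all 3880 genes at that level, a bound chosen after the values were seen, 23.0% passed.

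A missed threshold does not show that a gene did not differ, so the intervals of the differences matter more here than the count. The 95% interval of the log2 fold change lay within a 1.5-fold change in either direction for 42 of the 49 genes. The other genes were Psma8, Psmb9, Psmc3ip, Psmd8, Psmd9, Psme1 and Psme2b. All 14 constitutive core genes and 16 of 17 regulatory particle genes had intervals inside that bound. The SE of the log2 fold change had a median of 0.13 over the 49 genes.

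**Figure D1:**
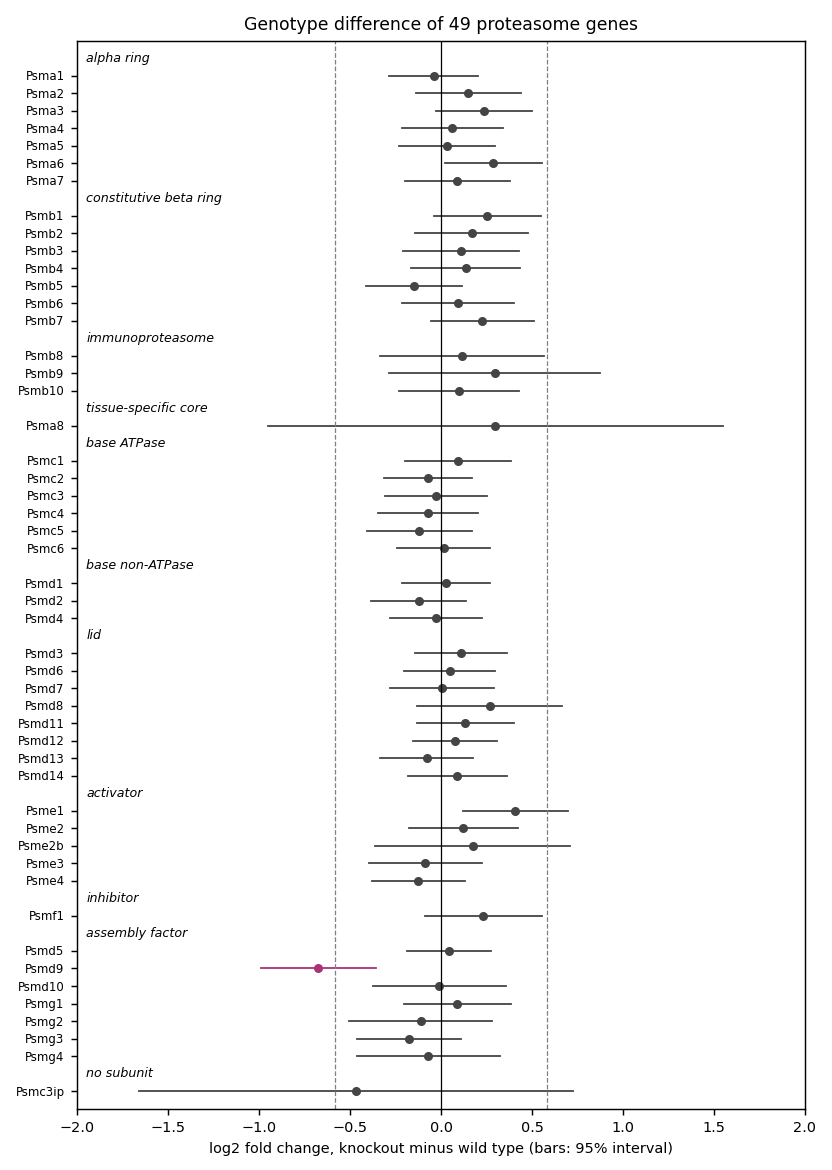
Log2 fold change of each tested proteasome gene between knockout and wild-type livers (points) with its 95% interval (bars), grouped by role. Dashed lines mark a 1.5-fold change. Psmd9, the only gene in colour, is the one that passed the threshold, and 42 of 49 intervals lie between the dashed lines.

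The alpha ring genes Psma1 to Psma7 encode the outer rings of the core, which gate entry to the barrel. None of the 7 passed, and their log2 fold changes ran from -0.04 (Psma1) to 0.29 (Psma6). Psma6 had 75.2, 84.7 and 74.2 CPM in the wild-type livers and 94.4, 103 and 88.7 CPM in the knockout livers. All 3 knockout values of Psma6 were above all 3 wild-type values, but the difference of 0.29 ± 0.12 (SE) missed the threshold (adjusted p = 0.114). Psma3 also had groups that did not overlap, with 111, 119 and 109 CPM in the wild-type livers and 130, 144 and 125 CPM in the knockout livers (log2 fold change 0.24 ± 0.11, adjusted p = 0.179). Groups lay apart with higher knockout values for 3 of the 49 genes tested (Psma3, Psma6 and Psme1) and with lower values for 2 (Psmd2 and Psmd9), against 18.7% and 22.0% of all genes.

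The 7 constitutive beta ring genes include the active-site subunits Psmb5 (chymotrypsin-like), Psmb6 (caspase-like) and Psmb7 (trypsin-like). None passed. Psmb5 had the lowest log2 fold change of the ring, -0.15 ± 0.11, and Psmb1, a structural subunit, the highest, 0.25 ± 0.13. The levels of Psmb5 were 92.0, 99.1 and 94.3 CPM in the wild-type livers and 80.1, 94.9 and 82.7 CPM in the knockout livers. Those of Psmb6 were 84.5, 94.5 and 92.8 CPM against 95.3, 111 and 83.9 CPM. Those of Psmb7 were 107, 123 and 110 CPM against 130, 146 and 123 CPM. In each of the 3 genes KO 2 was the highest knockout library, and the groups overlapped.

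Over the 14 constitutive core genes the median log2 fold change was 0.12, with 12 values above 0, and over the 17 regulatory particle genes it was 0.01, with 10 above 0. The core median was not shared evenly by the knockout libraries. Set against the wild-type mean, the median core gene stood at 0.09 in KO 1, 0.31 in KO 2 and -0.03 in KO 3 on the log2 scale, and between -0.06 and 0.10 in the wild-type libraries. Without KO 2 the core median was 0.03, with 8 of 14 values above 0. Core transcripts are short, with 11 of 14 annotated at under 1500 bases, against 4 of 17 in the regulatory particle. The library trend with length was steepest in KO 2, where log2 CPM fell by 0.13 per doubling of transcript length. Across all genes tested, the median log2 fold change was 0.14 for 2719 genes under 1500 bases and -0.13 for 6327 genes of at least 3000 bases. With the length trend of each library removed, the core median was -0.02, with 7 of 14 values above 0, and the regulatory particle median was -0.04. Such removal can also take out a difference between genotypes, and the part of length in the core median was not tested. Under other scalings of the libraries the core median stayed above 0, from 0.04 with library totals alone to 0.15 with RLE size factors.

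**Figure D2:**
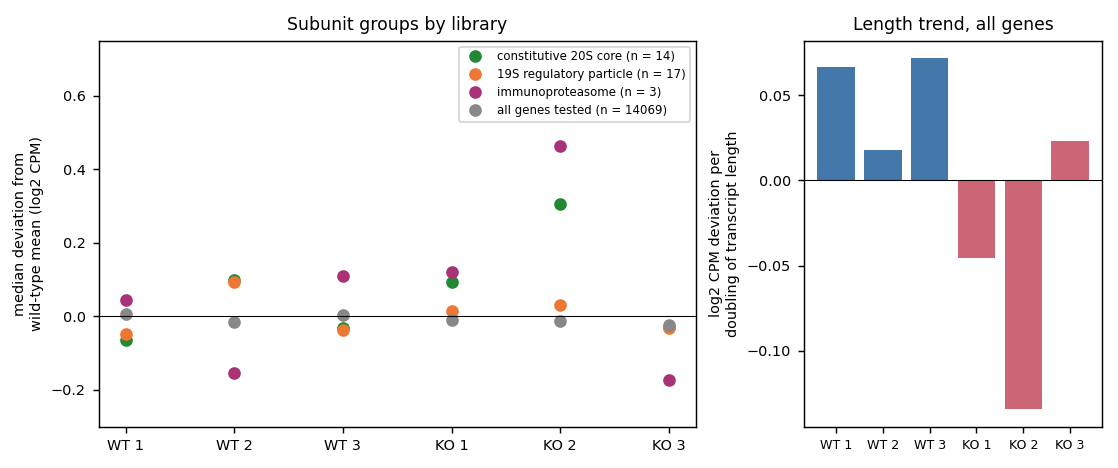
Left, the median deviation from the wild-type mean (log2 CPM) of core, regulatory particle, immunoproteasome and all tested genes in each library. Right, the slope of log2 CPM against the log2 of transcript length over all tested genes. KO 2 has the highest core median, 0.31, and the most negative slope, -0.13.

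The regulatory particle showed no called gene. Its 6 ATPases (Psmc1 to Psmc6), which form the unfolding ring, had log2 fold changes from -0.12 (Psmc5) to 0.09 (Psmc1). Among the base subunits without ATPase activity, the scaffold Psmd2 had 189, 207 and 190 CPM in the wild-type livers and 175, 181 and 181 CPM in the knockout livers. Every knockout value of Psmd2 was below every wild-type value, but the difference was small (-0.12 ± 0.11, adjusted p = 0.469). The other base subunits were Psmd1 (0.03) and the ubiquitin receptor Psmd4 (-0.03). The 8 lid genes ran from -0.08 (Psmd13) to 0.27 (Psmd8). Psmd14, the deubiquitinase of the lid, had 47.1, 60.0 and 51.7 CPM in the wild-type livers and 55.1, 56.8 and 57.1 CPM in the knockout livers. Psmd8 was the least even lid gene, with 96.6, 144 and 111 CPM against 148, 153 and 121 CPM, and WT 2 lay within the range of the knockout libraries. Its difference was 0.27 ± 0.17 (adjusted p = 0.308).

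Levels per transcript length allow subunits to be compared with one another. In TPM, computed here from the counts and the annotated lengths, constitutive core genes averaged from 40.9 TPM (Psma2) to 202 TPM (Psmb6) in wild-type livers. Regulatory particle genes ran from 52.0 TPM (Psmc6) to 155 TPM (Psmd4). The summed level of the core was 1790, 1872 and 1995 TPM in wild-type and 1805, 1928 and 1809 TPM in knockout libraries. That of the regulatory particle was 1527, 1611 and 1703 TPM against 1485, 1457 and 1545 TPM. The groups overlapped for both sums. Within the regulatory particle, the 6 ATPases summed to 552, 588 and 648 TPM in wild-type libraries and to 522, 536 and 538 TPM in the others, and the lid genes to 651, 690 and 692 TPM against 670, 637 and 684 TPM. The ATPase sums lay apart, lower in the knockout libraries, while the lid sums overlapped. TPM values share a fixed total with the mitochondrially encoded transcripts, whose share was higher in knockout libraries, and the part of that in the sums was not tested. These TPM values rest on 1 length per gene, the median over its annotated principal isoforms, or over other isoforms where none is principal. The isoforms used in these livers are not known from gene counts.

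Psmd9, which encodes an assembly chaperone of the ATPase base, was the only proteasome gene called. It had 48.3, 40.3 and 52.4 CPM in WT 1, WT 2 and WT 3 and 29.2, 32.8 and 26.3 CPM in KO 1, KO 2 and KO 3. Every knockout library lay below every wild-type library. Psmd9 fell by 0.67 ± 0.14 (SE) on the log2 scale, to 0.627 of its wild-type level, with adjusted p = 0.0158 (edgeR, n = 3 per group). The 95% interval was -0.99 to -0.36. The fall was 0.64 with the length trend removed (adjusted p = 0.0156). Without KO 1 the difference was -0.66 but the call was lost (adjusted p = 0.0753). By p, Psmd9 ranked 1040 among the 14069 genes. The gene, ENSMUSG00000029440, spans chromosome 5 from 123169413 to 123250131 (GRCm38, plus strand). Of its exon bases, 25.5% are shared with Gm26745 on the other strand, which had 2 counts in WT 1 and 0 in the other libraries.

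None of the other 6 assembly factors passed. Psmd5 and Psmd10 also encode chaperones of the ATPase base, with log2 fold changes of 0.04 ± 0.10 and -0.01 ± 0.16. Psmd5 had 30.7, 30.5 and 30.7 CPM in the knockout libraries, within its wild-type range of 28.4 to 31.4 CPM. The chaperones of the core, Psmg1 to Psmg4, ran from -0.18 (Psmg3) to 0.09 (Psmg1). The intervals of these 6 genes all lay within a 1.5-fold change. The 7 assembly factors summed to 134, 130 and 158 TPM in wild-type and 112, 114 and 115 TPM in knockout libraries, with no overlap. Psmd9 itself made up 32.8, 25.6 and 38.6 TPM of these sums in wild-type and 18.1, 19.1 and 17.6 TPM in knockout libraries. Whether the difference of Psmd9 was larger than that of the other 6 was not tested.

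Because the antioxidant response element is the site through which Nfe2l1 and Nfe2l2 are known to act on proteasome genes, promoters were searched for it. The search used the letters TGACNNNGC on both strands in the 250 bases before the start that RefSeq (GRCm38.p6) gives each gene. A window was matched for 42 of the 50 genes, and 5 of these (11.9%) held a match, against 11.5% of 27025 genes with a window. The 5 stretches are shown for comparison, 5′ to 3′ on the strand of the gene, with the match in capitals. They come from chr14:54618023-54618092 (minus strand, Psmb5), chr11:70525298-70525356 (plus, Psmb6), chr14:45329574-45329655 (plus, Psmc6), chr5:123228109-123228189 (plus, Psmd9) and chr11:107479278-107479339 (plus, Psmd12).
Psmb5: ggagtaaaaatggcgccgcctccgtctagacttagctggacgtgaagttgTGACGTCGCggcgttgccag
Psmb6: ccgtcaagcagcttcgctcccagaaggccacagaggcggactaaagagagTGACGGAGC
Psmc6: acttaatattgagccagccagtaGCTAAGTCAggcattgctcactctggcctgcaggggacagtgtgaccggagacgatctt
Psmd9: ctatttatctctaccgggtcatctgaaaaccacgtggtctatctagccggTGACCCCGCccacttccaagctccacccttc
Psmd12: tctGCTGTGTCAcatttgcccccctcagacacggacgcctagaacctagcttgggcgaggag
The matches of Psmb5, Psmb6 and Psmd9 ended 39, 1 and 23 bases before the RefSeq start and read forward, and those of Psmc6 and Psmd12 lay 219 and 239 bases before it in reverse. The RefSeq start of Psmd9, 123228190, is also that of its principal GENCODE transcript. It lies 58777 bases inside the annotated span of the gene. Of the 7 transcripts of Psmd9, 1 starts within 1 kb of the upstream end of that span. Of the 5 genes, Psmd9 fell, and the log2 fold changes of Psmb5, Psmb6, Psmc6 and Psmd12 were -0.15, 0.09, 0.01 and 0.08.

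Other motifs were searched in the same windows, on both strands, as a description. The heat shock element (GAA, TTC and GAA, or TTC, GAA and TTC, each separated by NN) was in 0 of 42 windows, against 0.514% of all genes. The ETS site (CCGGAAG) was in 13 of 42 (31.0%, against 7.83%). The palindrome of the nuclear respiratory factor Nrf1 (GCGCA and GCGC separated by N) was in 6 (14.3%, against 4.23%). This Nrf1 is a different gene from Nfe2l1. The gamma-activated site (TTCNNNGAA) was in 2, Psmb8 and Psmg1 (4.76%, against 8.13%). The interferon-stimulated response element (TTTC and TTTC separated by NN) was in 3, Psmb3, Psmd4 and Psmd9 (7.14%, against 3.46%). The CCAAT box was in 15 (35.7%, against 37.5%), the E-box CACGTG in 4 (9.52%, against 6.86%) and the cAMP response element TGACGTCA in 0 (against 1.77%). A match is only a string of letters, and no match in this window says nothing about the factor.

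The immunoproteasome genes showed no called change. Psmb8 had 23.9, 20.8 and 25 CPM in the wild-type livers and 25.2, 32.0 and 18.3 CPM in the knockout livers. Psmb9 had 8.16, 5.48 and 9.86 CPM against 8.50, 12.3 and 8.03 CPM. Psmb10 had 20.7, 21.8 and 20.7 CPM against 22.3, 26.6 and 18.6 CPM. The groups overlapped for all 3, and KO 2 was the highest and KO 3 the lowest knockout library each time. The log2 fold changes were 0.12 ± 0.20 for Psmb8 (95% interval -0.33 to 0.57), 0.29 ± 0.25 for Psmb9 (-0.28 to 0.87) and 0.10 ± 0.14 for Psmb10 (-0.23 to 0.43). Without KO 2 they were -0.09 for Psmb8, 0.08 for Psmb9 and -0.04 for Psmb10, and without WT 2 that of Psmb9 was 0.09.

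Each immune subunit can also be set against the constitutive subunit it replaces, a ratio that does not depend on how libraries are scaled. Per transcript length, Psmb8 stood at 0.143, 0.116 and 0.146 of Psmb5 in wild-type and 0.174, 0.186 and 0.122 in knockout libraries. Psmb9 stood at 0.0570, 0.0342 and 0.0627 of Psmb6, against 0.0526, 0.0655 and 0.0565. Psmb10 stood at 0.172, 0.156 and 0.165 of Psmb7, against 0.152, 0.161 and 0.134. All 3 pairs overlapped between the genotypes, and the constitutive transcript was the more abundant one in each of the 6 libraries. The mean difference in log2 ratio was 0.24 for Psmb8 to Psmb5, 0.22 for Psmb9 to Psmb6 and -0.14 for Psmb10 to Psmb7. Without WT 2 it was -0.04 for Psmb9 to Psmb6.

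Immune cells carry much of the immunoproteasome in many tissues, and several of their markers moved between these groups. Of 12 Kupffer cell markers tested, 7 fell and 0 rose, and their sum was 157 to 339 CPM in the wild-type livers and 75.8 to 109 CPM in the knockout livers. Of 11 leukocyte and T cell markers tested, 1 (Cd3g) rose, with sums of 30.4 to 63.2 CPM against 44.7 to 55.1 CPM. Cd3g was near the floor, with 5, 7 and 3 counts in wild-type and 17, 16 and 19 in knockout libraries. It passed the low-count filter through the knockout libraries, so its call carries little weight. Of 5 B and plasma cell markers tested, 3 (Jchain, Igkc and Igha) rose, with sums of 3.66 to 8.57 CPM against 48.9 to 68.2 CPM. Of 7 neutrophil markers tested, 0 passed, with sums of 20.3 to 123 CPM against 81.4 to 111 CPM. Of 3 dendritic cell markers tested, 1 (Clec9a) fell, with sums of 6.48 to 8.86 CPM against 6.31 to 11.3 CPM. No marker was at 0 in all 6 libraries. In bulk samples, fewer cells of a type and less RNA per cell cannot be told apart, and the part of these cells in the immunoproteasome levels was not tested.

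**Figure D3:**
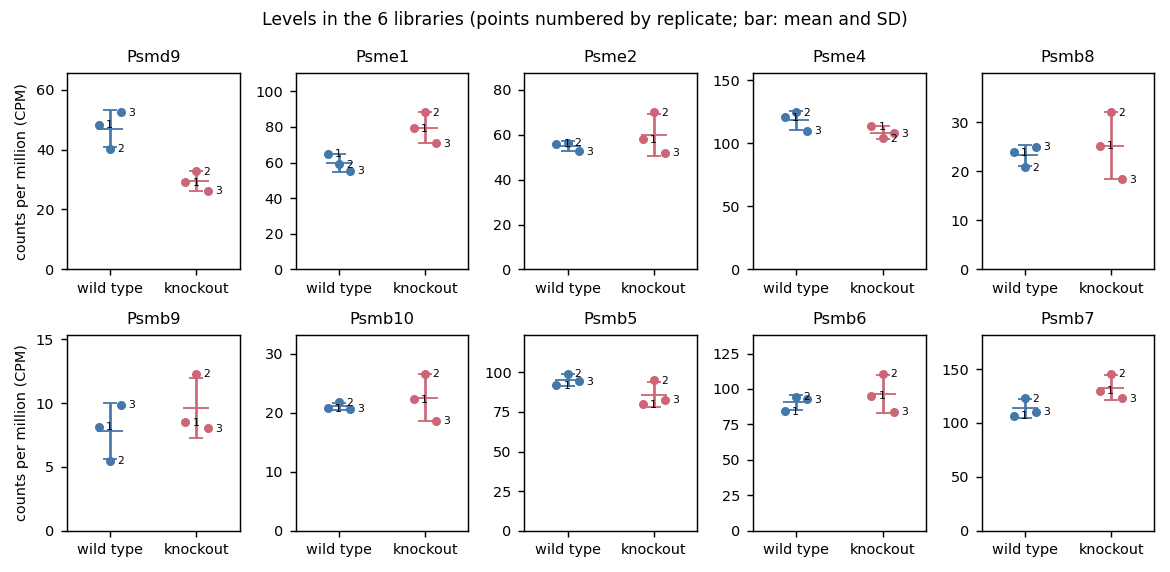
CPM of Psmd9, the activators Psme1, Psme2 and Psme4, the immunoproteasome genes and their constitutive counterparts in each library (points, numbered by replicate), with mean and SD of each genotype. Groups lie apart for Psmd9 and Psme1 and overlap for the other 8 genes.

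Psme1 and Psme2 encode the alpha and beta subunits of PA28, the interferon-inducible activator that opens the core for peptide release. Psme1 had 65.0, 59.1 and 55.3 CPM in the wild-type livers and 79.4, 88.1 and 70.7 CPM in the knockout livers. All 3 knockout libraries were above all 3 wild-type libraries. The log2 fold change of 0.41 ± 0.13 (95% interval 0.12 to 0.70) just missed the threshold (adjusted p = 0.0527, edgeR). It passed with DESeq2 (adjusted p = 0.0277), RLE size factors (adjusted p = 0.0441) or a stricter count filter (adjusted p = 0.0469). With the length trend removed it was 0.28 (adjusted p = 0.0980), and over all alternatives that kept every library the adjusted p ran from 0.0277 to 0.0980. Psme1 did not pass when any 1 library was left out (adjusted p from 0.0533 to 0.171, edgeR). Its partner Psme2 had 55.9, 56.4 and 52.5 CPM against 57.8, 69.8 and 51.9 CPM, with overlapping groups and a log2 fold change of 0.12 ± 0.13. The 2 genes are neighbours on chromosome 14 (GRCm38), Psme1 from 55578123 to 55581529 on the plus strand and Psme2 from 55587441 to 55591113 on the minus strand. Per transcript length the ratio of Psme1 to Psme2 was 1.01, 0.906 and 0.911 in wild-type and 1.19, 1.09 and 1.18 in knockout libraries. The ratio was higher in every knockout library than in any wild-type library.

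The remaining activators and the inhibitor did not pass. Psme3, the nuclear activator PA28 gamma, had 53.8, 66.6 and 59.0 CPM in the wild-type livers and 57.3, 48.8 and 62.8 CPM in the knockout livers (log2 fold change -0.09 ± 0.14). Psme4, which encodes the activator PA200, had 121, 124 and 110 CPM against 114, 104 and 108 CPM (-0.13 ± 0.11). KO 2 was the lowest knockout library for both, the reverse of its place for Psme1. Psme3 and Psme4 are annotated at 2664 and 6491 bases and Psme1 at 1112 bases. With the length trend removed, the log2 fold change of Psme4 was 0.025. The part of transcript length in the place of KO 2 was not tested. Psmf1, which encodes the proteasome inhibitor PI31, had 19.4, 21.5 and 24.0 CPM against 25.5, 28.8 and 22.0 CPM (0.23 ± 0.14, adjusted p = 0.274). Psme2b, a close copy of Psme2, stood at 3.57 ± 0.45 CPM and 4.03 ± 0.98 CPM (SD, n = 3 per group). Its reads may be divided with those of Psme2 by the estimation, so its level is uncertain.

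Subunits of other tissues were near or at the detection floor, as was a gene that shares the name only. Psma8, the alpha subunit of testis, had 12 to 47 counts per library. Psmb11, the beta subunit of thymic cortex, had 0 counts in all 6 libraries, which allows up to 0.0631 to 0.0833 CPM (3 counts, counting error only). Psmc3ip met the naming rule but encodes a cofactor of meiotic recombination and no subunit, and it had 5 to 17 counts.

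Around the proteasome, Nfe2l2, Zfand5 and Zfand2a rose. Of 21 tested genes of proteasome regulators and associated factors, 3 rose (Zfand2a, Nfe2l2 and Zfand5) and 1 fell (Ubqln2), with a median log2 fold change of 0.16. That count is near the 20.4% of all genes that passed. Nfe2l2, the antioxidant regulator that can induce proteasome genes, had 32.3, 31.8 and 33.8 CPM in the wild-type livers and 83.6, 73.4 and 93.8 CPM in the knockout livers. It rose by 1.36 ± 0.12 (adjusted p = 0.00136, edgeR). Its relative Nfe2l1, which drives proteasome genes when proteasome activity is short, had 123, 108 and 115 CPM against 98.7, 96.8 and 104 CPM (-0.21 ± 0.11, adjusted p = 0.222). Ddi2, the protease that activates Nfe2l1, had 289.9, 321.9 and 264.5 CPM against 231, 216 and 201.8 CPM (-0.43 ± 0.13, adjusted p = 0.0519). For both Nfe2l1 and Ddi2, every knockout library lay below every wild-type library, as for 22.0% of all genes tested. So the knockout libraries held more Nfe2l2 transcript, while neither Nfe2l1 nor Ddi2 was called.

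The zinc finger genes Zfand5 and Zfand2a encode proteins that bind the proteasome. Zfand5 had 54.4, 52.3 and 51.5 CPM in the wild-type livers and 122, 134 and 125 CPM in the knockout livers, a rise of 1.27 ± 0.11 (adjusted p = 0.00100). Zfand2a, known for its induction by arsenite, had 25.2, 28.3 and 21.2 CPM against 76.3, 80.8 and 59.8 CPM, a rise of 1.54 ± 0.16 (adjusted p = 0.00213). All 3 knockout libraries were above all 3 wild-type libraries for both genes. Ubqln2, which shuttles ubiquitinated proteins to the proteasome, fell by 0.50 ± 0.12 (adjusted p = 0.0269), a call lost when WT 1, WT 3, KO 1 or KO 3 was left out (highest adjusted p = 0.106). Pomp, the maturation factor of the core, stood at 0.17 ± 0.13, and the regulatory particle subunits outside the naming rule, Adrm1 and Sem1, stood at -0.07 ± 0.11 and 0.25 ± 0.17.

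Genes for ubiquitin and the delivery of substrates were examined singly. The polyubiquitin gene Ubb had 453, 541 and 491 CPM in the wild-type livers and 678, 752 and 549 CPM in the knockout livers. All 3 knockout libraries were above all 3 wild-type libraries, but the difference of 0.41 ± 0.16 missed the threshold (adjusted p = 0.106). Rps27a, which encodes ubiquitin fused to a ribosomal protein, stood at 0.23 ± 0.19, the segregase gene Vcp at 0.01 ± 0.12 and the ubiquitin-activating enzyme gene Uba1 at 0.00 ± 0.12.

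Of 21 genes of class I antigen processing and interferon signalling, 2 rose (Irf1 and Jak2) and 1 fell (Tapbpl), with a median log2 fold change of 0.01. The count is not above the 20.4% of all genes that passed. Irf1, a transcription factor that induces immunoproteasome genes in response to interferon, had 20.7, 19.6 and 27.8 CPM in the wild-type livers and 34.5, 36.0 and 45.5 CPM in the knockout livers. It rose by 0.77 ± 0.17 (adjusted p = 0.0198), a call lost when WT 1, KO 1 or KO 3 was left out (highest adjusted p = 0.0658) and with library totals alone (adjusted p = 0.0555). KO 3, the highest library for Irf1, was the lowest of the knockout libraries for Psmb8, Psmb9 and Psmb10. For Psmb9 it lay close to KO 1 (8.03 against 8.50 CPM). A link between the level of Irf1 and these genes was not tested. Jak2 (0.77 ± 0.22, adjusted p = 0.0405) lost its call with library totals alone (adjusted p = 0.0607) and when any single library but KO 2 was left out (highest adjusted p = 0.110). Tapbpl (-0.55 ± 0.12, adjusted p = 0.0187) lost it when KO 1 or KO 3 was left out (highest adjusted p = 0.0767). Tap1, the peptide transporter gene whose exons overlap those of Psmb9 on the other strand, had 23.4, 21.4 and 26.8 CPM against 18.1, 20.1 and 21.2 CPM (-0.27 ± 0.13, adjusted p = 0.172). Whether the counting kept strands apart is not stated, so reads from the shared bases, 5.79% of the exon bases of Psmb9, cannot be assigned with certainty.

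**Figure D4:**
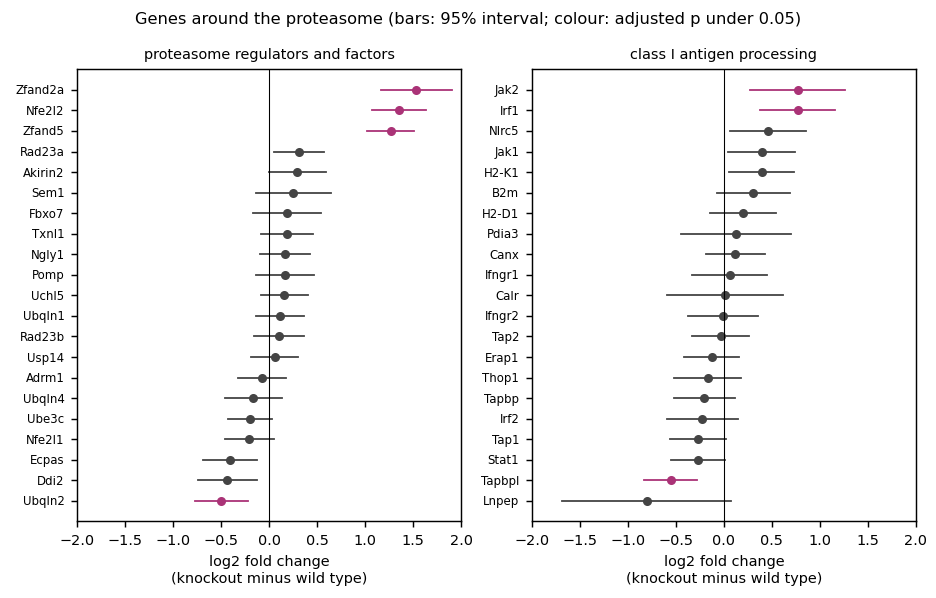
Log2 fold change (points) and 95% interval (bars) of the genes of 2 lists around the proteasome. Coloured genes passed the threshold: 4 of 21 regulators and factors and 3 of 21 class I genes, against 20.4% of all genes tested.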

How the data were processed

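The authors deposited a single table of expected counts, which are model-based estimates and can hold fractions, unscaled, for the 6 libraries, per the file headers and the values. Per the submitters' processing notes, Trim Galore, STAR, Salmon and GRCm38 were used, while versions, settings, order and strand handling are not given. Symbols, positions and isoform lengths (median per gene) came from GENCODE M21 (GRCm38), which matched 45143 of 45706 genes. Counts were rounded, filtered with filterByExpr and scaled by TMM. Genotype was tested with the quasi-likelihood method (two-sided) of edgeR 4.0.16 (R 4.3.3), over 14069 genes, with Benjamini-Hochberg adjustment and a threshold of 0.05. Standard errors were back-calculated from each fold change and its F statistic, and intervals use the moderated degrees of freedom. The procedure was tested on simulated data first. It called 9.47% of 95 genes given a 1.5-fold change, 77.9% of 95 given a 3-fold change and 0.0665% of 13544 unchanged genes. Other settings tried were scaling by RLE, upper quartiles or library totals, other filters, no robust estimation, DESeq2 1.42.0, limma voom (limma 3.58.1), removal of length trends (lowess span 0.5), removal of mitochondrial and hemoglobin genes, a replicate block, a threshold of 0.1 and leaving out each library. Members, gene lists and tests were chosen with earlier results of these data known. Every member could be named, as could any called gene of the related lists, and Nfe2l1 and Nfe2l2, and the list of ubiquitin and delivery genes is not reported here as a whole. Other genes of those lists and the called markers were named after their values were seen. Replicates differed by 34.5 to 138 times counting noise per gene, so none was a duplicate. Figures used matplotlib 3.10.9 (Python 3.11.15).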

Additional observations from a re-analysis of the deposited data

How the results depend on the processing

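Of 830 fold changes of proteasome genes recomputed under an alternative, 774 kept their direction and their side of the threshold, 51 changed sign, 2 lost a call and 3 gained one. The lost calls were of Psmd9, without KO 1 (-0.66) and with a replicate block (-0.67, adjusted p = 0.0554), so the block left 0 proteasome genes lower. The block also ended the calls of Ubqln2 (adjusted p = 0.0678), Tapbpl (adjusted p = 0.0597) and Jak2 (adjusted p = 0.0928). The replicate numbers did not pair the samples (correlations -0.08, 0.01 and -0.09 between libraries of the same number), and with the block 807 genes rose and 661 fell. The gained calls were of Psme1, so that 1 proteasome gene was higher with RLE size factors, with at least 50 counts in 3 libraries and with DESeq2, and 1 at an adjusted p under 0.1, where 2249 of all genes were lower. When 1 library was left out, 385 (without KO 1) to 1390 genes rose, 218 (without KO 1) to 1690 fell, 0 proteasome genes rose and 0 to 1 fell. The summed level in knockout relative to wild-type libraries went from 0.98 to 1.03 for the core and from 1.03 to 0.987 for the activators when shares of the library total, not corrected for length, were summed in place of TPM, and the cause was not tested. None of the 51 values that changed sign was called (lowest adjusted p = 0.616). With library totals alone they were -0.019 for Psma4, -0.044 for Psma5, -0.055 for Psmc6, -0.048 for Psmd1, -0.033 for Psmd5, -0.031 for Psmd6 and -0.066 for Psmd7. With upper-quartile scaling they were -0.016 for Psma5, -0.035 for Psmc6, -0.025 for Psmd1, -0.0078 for Psmd5, -0.002 for Psmd6 and -0.045 for Psmd7. With the length trend removed they were -0.058 for Psma4, -0.076 for Psma5, -0.061 for Psma7, -0.067 for Psmb3, -0.077 for Psmb6, -0.0079 for Psmb10, -0.042 for Psmd6, -0.062 for Psmd7, -0.027 for Psme2, 0.025 for Psme4 and -0.041 for Psmg1. Psmd10 was 0.016 with RLE size factors and 0.013 with DESeq2. Leaving out 1 library gave ranges of -0.092 to 0.0029 for Psma1, -0.018 to 0.13 for Psma4, -0.048 to 0.081 for Psma5, -0.25 to 0.92 for Psma8, -0.038 to 0.22 for Psmb10, -0.011 to 0.21 for Psmb3, -0.015 to 0.19 for Psmb6, -0.092 to 0.30 for Psmb8, -0.091 to 0.056 for Psmc3, -0.039 to 0.073 for Psmc6, -0.13 to 0.0798 for Psmd10, -0.079 to 0.0199 for Psmd4, -0.0025 to 0.096 for Psmd6, -0.093 to 0.075 for Psmd7, -0.0014 to 0.22 for Psme2, -0.037 to 0.31 for Psme2b, -0.17 to 0.0067 for Psme3 and -0.23 to 0.0077 for Psmg2. Depth limited Psma8, Psmb11 and Psmc3ip, which had at most 47 counts in any library.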
